A study of Mus musculus with 8 samples.

Results

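Casp4 and 7 related genes of cell death and inflammation were followed in mouse muscle stem cells, which regenerate skeletal muscle. The group held the caspases Casp4, Casp1, Casp12, Casp2, Casp6, Casp8 and Casp9 and the pore-forming protein gene Gsdmd, 8 genes of the 57180 in the count table. Casp4 was chosen by its measured values, because it was higher in the RhoA het libraries. Its difference between the groups is therefore given as a description without a test, and the other 7 genes were listed by name.

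RNA was sequenced from cells purified by flow cytometry without culture, with 4 libraries per group. Control libraries (replicates 2, 5, 7 and 8) came from mice titled WT. RhoA het libraries (replicates 5, 6, 7 and 8) came from mice written as SC-RhoAfl/+ in the series' design text and as a RhoA knockdown in the genotype label, with 1 floxed RhoA allele. The Cre driver, the age of the mice, pooling of animals and any allele shared by both groups are not given in the sources used here. The stated aim was to find changes in expression and splicing after a reduction of RhoA, a small GTPase that controls the actin cytoskeleton. The labels do not say whether replicates were separate animals, so p-values measure the spread between these libraries, which may be technical.

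Caspases are cysteine proteases that are made as inactive precursors. The inflammatory caspases start pyroptosis, a lytic cell death: mouse Casp4 (also named caspase-11) binds bacterial lipopolysaccharide in the cytosol, and Casp1 is activated by inflammasomes, which are sensor complexes. Both cut gasdermin D, the product of Gsdmd, whose free end forms pores in the plasma membrane. Casp8, Casp9 and Casp2 start apoptosis from death receptors, from mitochondria and from the PIDDosome complex, and Casp6 acts downstream.

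Libraries held 19138763 to 25606342 assigned fragments and 1.25% to 1.65% mitochondrial fragments. Rhoa, the targeted gene, lay at 272.6 to 382.9 CPM (counts scaled to a common library size, with TMM factors) in control and at 252.5 to 282.1 CPM in RhoA het, and these ranges overlapped (log2 fold change -0.29, SE 0.13, edgeR unadjusted p 0.0495). For replicate numbers 5, 7 and 8 the RhoA het library held 0.817, 0.929 and 0.846 times the control value. Of all genes tested, 12.5% were lower in RhoA het for each of these numbers. Of 8 muscle stem cell markers all were detected, and their summed level was 8316 to 14410 CPM in control and 7560 to 14700 CPM in RhoA het. Most of that sum was Sdc4 and Vcam1. Pax7, set apart after its values were seen, was at 112.5 to 175.8 CPM in control and 78.55 to 105.6 CPM in RhoA het. These Pax7 ranges did not overlap, beside 1.81% of all genes tested, and 4 of the 8 markers had a higher mean in RhoA het. RhoA het replicate 6 stood apart: the 10 endothelial markers summed to 691.8 CPM there and to 74.3 to 169.9 CPM in the other 7 libraries. Fragments of 4 Y-linked genes numbered 14358 for control replicate 2 and 14659 for RhoA het replicate 6, while no other library held more than 2. Fragments of Xist, an X-linked gene of female cells, numbered 5 and 7 in these libraries and 3539 to 5188 in the others. The libraries of a group therefore did not all come from the same mouse. Neither of these libraries shares its replicate number with a library of the other group. In such bulk samples, more cells of a type and more RNA per cell cannot be told apart.

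Casp1, Casp4 and Casp12 lie side by side on the plus strand of mm39 chromosome 9. Casp1 (ENSMUSG00000025888.7) spans 5298508 to 5307290, Casp4 (ENSMUSG00000033538.14) 5308828 to 5336783 and Casp12 (ENSMUSG00000025887.11) 5345430 to 5373032. The gap is 1537 bases between Casp1 and Casp4 and 8646 bases between Casp4 and Casp12. No other annotated gene overlaps any of them, so fragments counted without regard to strand are not shared with an antisense gene there. The 3 upstream sequences are shown because the genes are neighbours. Whether their differences between the groups are unlike was not tested. Each is the 250 bases before the first RefSeq start of the gene (build GRCm38.p6, plus strand, 5′ to 3′), with matches to the motifs below in capitals.
Casp1, chr9:5298267-5298516: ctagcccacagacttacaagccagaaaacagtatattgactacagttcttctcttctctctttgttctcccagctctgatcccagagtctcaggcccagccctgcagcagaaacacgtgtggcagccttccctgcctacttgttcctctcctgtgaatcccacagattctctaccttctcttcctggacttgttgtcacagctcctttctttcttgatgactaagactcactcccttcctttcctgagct
Casp4, chr9:5308599-5308848: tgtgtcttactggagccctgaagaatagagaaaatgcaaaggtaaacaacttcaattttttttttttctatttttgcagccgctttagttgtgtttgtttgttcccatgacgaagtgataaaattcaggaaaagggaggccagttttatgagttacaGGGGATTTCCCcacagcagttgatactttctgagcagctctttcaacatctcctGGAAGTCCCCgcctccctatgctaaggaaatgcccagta
Casp12, chr9:5345226-5345475: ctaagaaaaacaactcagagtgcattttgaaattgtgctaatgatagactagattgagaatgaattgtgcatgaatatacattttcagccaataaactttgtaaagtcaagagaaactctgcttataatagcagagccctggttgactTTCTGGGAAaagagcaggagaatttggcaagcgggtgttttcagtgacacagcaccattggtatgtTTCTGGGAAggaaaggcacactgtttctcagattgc

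Both strands were searched for 6 motifs: AP-1 (TGANTCA), TEAD (GGAATG), GAS (TTCNNNGAA), the ISRE core (GAAANNGAAA), the kB consensus bound by NF-kB factors, and the CArG box bound by SRF. The Casp4 sequence held 3 matches to the kB consensus. The matches GGGGATTTCC and GGGATTTCCC overlap each other at 93 to 83 bases before the start, and the printed letters GGAAGTCCCC at 39 to 30 bases before it match when read on the opposite strand. The Casp12 sequence held TTCTGGGAA, a GAS match, at 102 to 94 and at 36 to 28 bases before the start. The Casp1 sequence held none of the 6 motifs, nor did those of Casp2, Casp6, Casp8 and Casp9. Among all 32851 annotated promoters, 7.25% held the kB consensus, 7.02% GAS, 6.75% AP-1, 12.6% TEAD, 2.98% the ISRE core and 1.47% the CArG box. The copy of the RefSeq promoters used here had an entry for 7 of the 8 genes, all but Gsdmd. A match describes letters and not binding, and whether these starts are used in muscle stem cells was not tested.

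Casp4 was the gene of the group that separated the libraries. It was at 36.7, 31.0, 39.2 and 37.2 CPM in control replicates 2, 5, 7 and 8, and at 51.1, 71.9, 51.1 and 58.2 CPM in RhoA het replicates 5, 6, 7 and 8. All 4 RhoA het libraries lay above all 4 control libraries, and the lowest RhoA het value was 1.31 times the highest control value. Such a separation upward in RhoA het was found for 160 of the 15660 genes tested, or 1.02%, and nothing is read from it for a gene chosen this way. RhoA het averaged 58.1 ± 9.81 CPM against 36.0 ± 3.52 CPM for control (SD, 4 libraries per group). The log2 fold change was thus 0.69 (SE 0.14), or 1.61-fold. The counts behind these values were 667 to 1045 fragments in control and 1089 to 1513 in RhoA het.

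**Figure D1:**
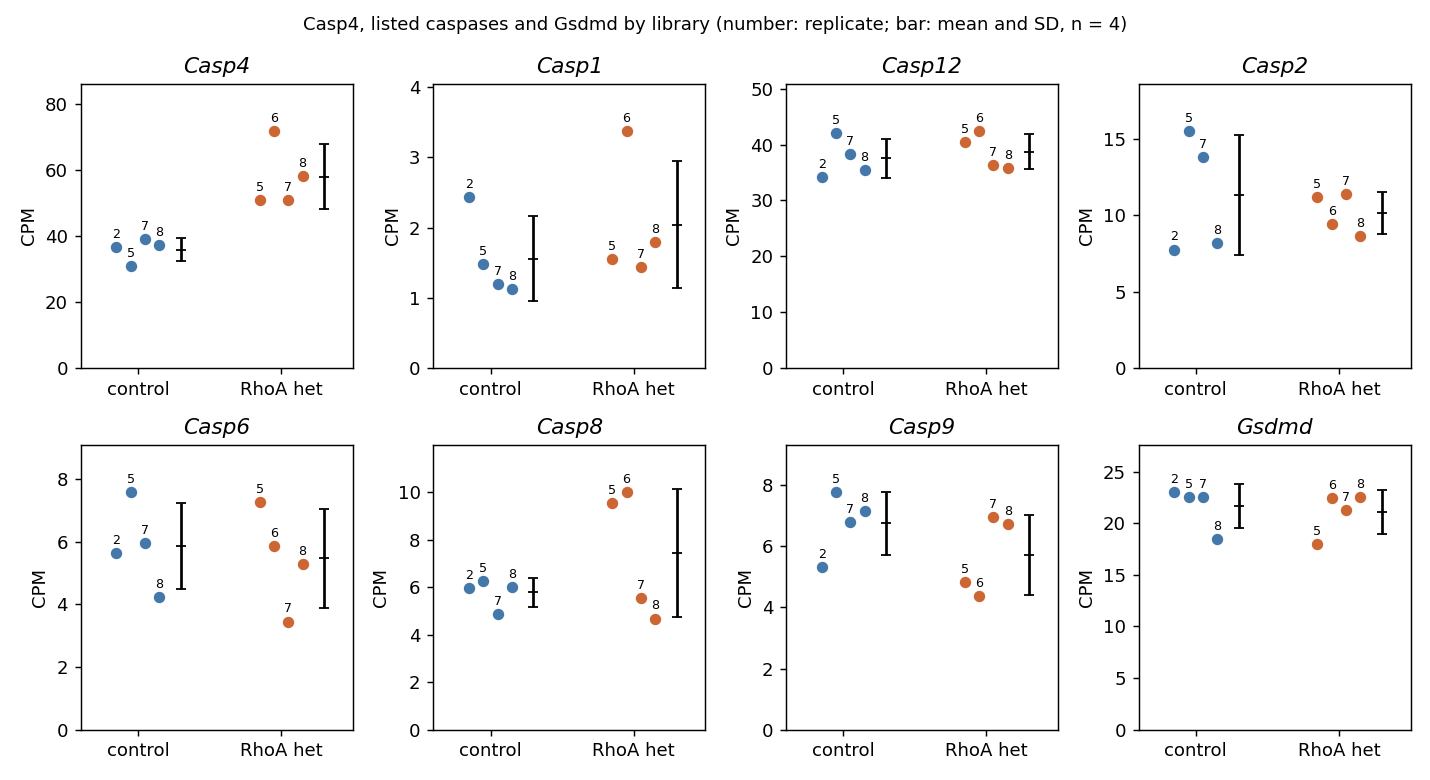
CPM of the 8 genes in each library, with 1 panel per gene, control in blue, RhoA het in orange, the replicate number above each point, and mean and SD (n = 4) as a black bar. The Casp4 values reach 39.2 CPM in control and start at 51.1 CPM in RhoA het; in the other 7 panels the groups overlap.

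RhoA het replicate 6, the library with high endothelial markers, had the highest Casp4 value. Without that library the log2 fold change was 0.57. The same replicate numbers 5, 7 and 8 occur in both groups. Casp4 was 1.65, 1.31 and 1.56 times higher in the RhoA het library of numbers 5, 7 and 8. In these 3 pairs, 13.6% of all genes tested were higher in RhoA het each time. With the replicate number as a block, the Casp4 log2 fold change was 0.56 (SE 0.13).

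Casp1, the neighbour upstream of Casp4 and the protease of the canonical inflammasome, was the least abundant gene of the group. It was at 2.43, 1.49, 1.199 and 1.13 CPM in control replicates 2, 5, 7 and 8, and at 1.55, 3.38, 1.43 and 1.80 CPM in RhoA het replicates 5, 6, 7 and 8. The groups overlapped, and the highest value of each group came from the library that held Y-linked fragments. These values rest on 24 to 71 fragments per library. The edgeR estimate on the log2 scale was 0.39, with an SE of 0.38, a 95% interval of -0.46 to 1.24 and an unadjusted p of 0.327. It was 0.034 without RhoA het replicate 6 and 0.68 without control replicate 2.

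Ptprc, the pan-leukocyte gene, was at 4.42 CPM (93 fragments) in RhoA het replicate 6 and at 0.106 to 0.470 CPM in the other 7 libraries. Of 10 macrophage and other immune markers, 8 were highest in that library and 9 had a higher mean in RhoA het. Their sum was 118.6 to 360.0 CPM in control and 95.4 to 322.5 CPM in RhoA het, most of it Lyz2 at 85.8 to 352.2 CPM. None of the 10 was at 0 in all libraries, while Adgre1, a macrophage marker, had no fragment in 5 of the 8. The part of other cells in the Casp1 and Casp4 levels of RhoA het replicate 6 was not tested.

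**Figure D2:**
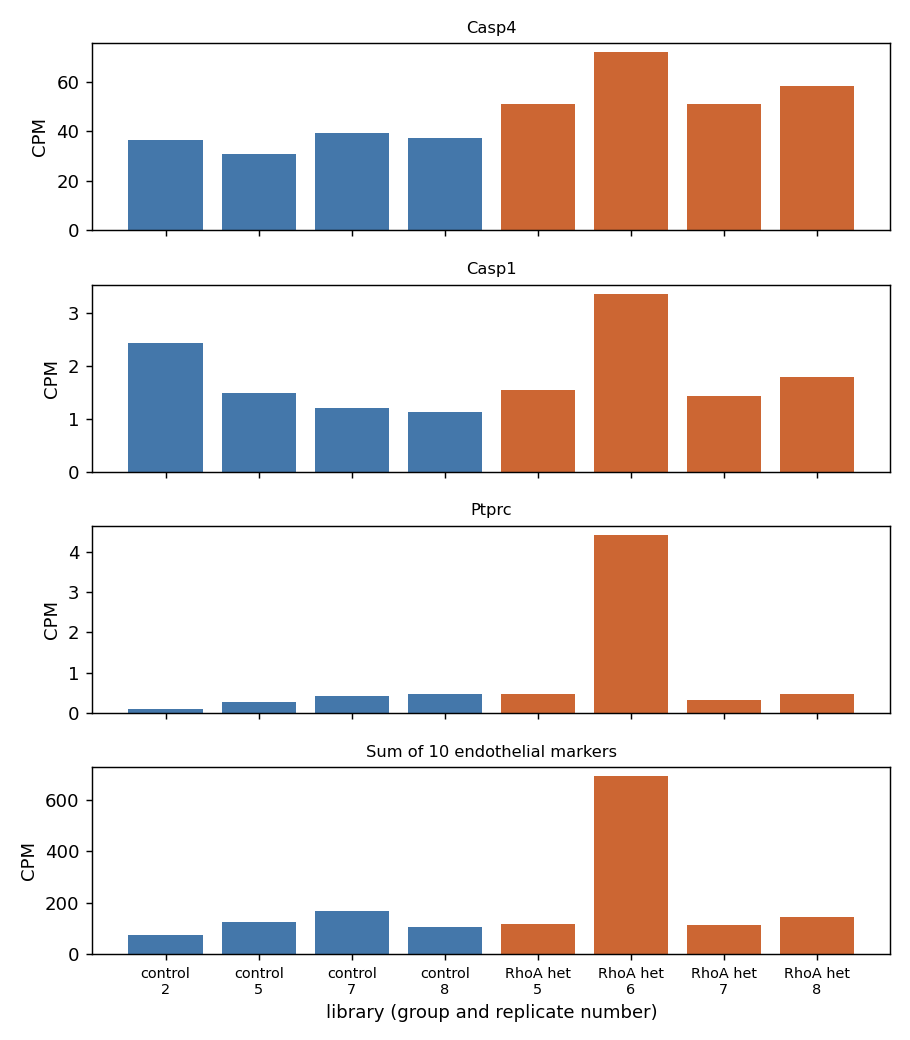
Bars give CPM by library for Casp4, Casp1, Ptprc and the sum of 10 endothelial markers, control in blue and RhoA het in orange. RhoA het replicate 6 is the highest bar in all 4 panels, at 71.9 CPM for Casp4 and 691.8 CPM for the endothelial sum.

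Casp12, the neighbour downstream of Casp4, is bound to the endoplasmic reticulum in mouse cells. It was at 34.1, 42.1, 38.4 and 35.5 CPM in control replicates 2, 5, 7 and 8, and at 40.4, 42.4, 36.3 and 35.8 CPM in RhoA het replicates 5, 6, 7 and 8. The groups covered nearly the same range. Its edgeR estimate on the log2 scale was 0.046, with an SE of 0.12, a 95% interval of -0.22 to 0.31 and an unadjusted p of 0.704. Changes of Casp12 above 1.24-fold or below 0.86-fold lay outside that interval. It took the opposite sign without RhoA het replicate 6 (-0.0017), with the replicate block (-0.065) and in the same 6 libraries unblocked (-0.066).

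The ratio of Casp4 to Casp12 in TPM (counts per length on a common total), which does not depend on library scaling, was 1.00 ± 0.164 in control and 1.55 ± 0.205 in RhoA het (SD, n = 4 each). Control libraries reached 1.11 and RhoA het libraries started at 1.31. The ratio of Casp4 to Casp1 overlapped between the groups, at 12.8 to 27.9 in control and 18.0 to 30.1 in RhoA het. The first ratio contains the values that chose Casp4 and is a description.

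Gsdmd (ENSMUSG00000022575.6; mm39 chromosome 15, 75734176 to 75739257, plus strand) encodes the shared substrate of Casp1 and Casp4. It was at 23.0, 22.6, 22.6 and 18.5 CPM in control replicates 2, 5, 7 and 8, and at 18.0, 22.4, 21.2 and 22.6 CPM in RhoA het replicates 5, 6, 7 and 8. The groups overlapped almost fully, with 1 low library in each. The edgeR estimate on the log2 scale was -0.039, with an SE of 0.14, a 95% interval of -0.34 to 0.27 and an unadjusted p of 0.783, and its sign was positive on total counts (0.0024) and on log2(TPM + 1) (0.041). The ratio of Casp4 to Gsdmd in TPM was 1.08 ± 0.173 in control and 1.77 ± 0.223 in RhoA het (SD, n = 4 each).

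Casp8, the initiator at death receptors, was uneven within RhoA het. It was at 5.97, 6.27, 4.87 and 6.01 CPM in control replicates 2, 5, 7 and 8, and at 9.53, 9.98, 5.56 and 4.68 CPM in RhoA het replicates 5, 6, 7 and 8. RhoA het replicates 5 and 6 were above every control library, and RhoA het replicate 8 was below every one. The edgeR estimate on the log2 scale was 0.36, with an SE of 0.27, a 95% interval of -0.25 to 0.98 and an unadjusted p of 0.213. It ranged from 0.13 with the replicate block to 0.53 without RhoA het replicate 8. Casp8 (ENSMUSG00000026029.15; mm39 chromosome 1, 58834533 to 58886662) overlaps Gm37760, a gene on the same strand with at most 17 fragments in a library.

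Casp9, the initiator activated on the apoptosome, averaged 5.72 ± 1.31 CPM in RhoA het against 6.75 ± 1.03 CPM in control (SD, 4 libraries per group). Control libraries lay at 5.34, 7.76, 6.78 and 7.14 CPM (replicates 2, 5, 7 and 8), and RhoA het libraries at 4.84, 4.37, 6.95 and 6.74 CPM (replicates 5, 6, 7 and 8). RhoA het replicates 5 and 6, the libraries with high Casp8, were the lowest for Casp9. The edgeR estimate on the log2 scale was -0.24, with an SE of 0.22, a 95% interval of -0.74 to 0.26 and an unadjusted p of 0.313. It ranged from -0.36 without RhoA het replicate 7 to -0.13 without RhoA het replicate 6. Casp9 (ENSMUSG00000028914.14; mm39 chromosome 4, 141520923 to 141543287) overlaps 2 genes of the opposite strand, which had at most 2 fragments in any library.

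Casp2, the protease of the PIDDosome, had a wider range in control than in RhoA het. It was at 7.77, 15.5, 13.8 and 8.17 CPM in control replicates 2, 5, 7 and 8, and at 11.2, 9.41, 11.4 and 8.64 CPM in RhoA het replicates 5, 6, 7 and 8. All RhoA het values fell inside the control range. The coefficient of variation was 34.8% in control and 13.2% in RhoA het, a difference that was not tested. The edgeR estimate on the log2 scale was -0.16, with an SE of 0.25, a 95% interval of -0.73 to 0.41 and an unadjusted p of 0.548. Without control replicate 5 it was 0.019. Casp2 (ENSMUSG00000029863.14) lies at mm39 chromosome 6, 42241919 to 42259442, and overlaps 1 unnamed gene with 0 fragments in every library.

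Casp6 (ENSMUSG00000027997.10; mm39 chromosome 3, 129695074 to 129707752), a downstream caspase, was at 5.65, 7.57, 5.96 and 4.23 CPM in control replicates 2, 5, 7 and 8. In RhoA het replicates 5, 6, 7 and 8 it was at 7.28, 5.85, 3.45 and 5.29 CPM. The groups overlapped, and the edgeR estimate on the log2 scale was -0.098, with an SE of 0.27, a 95% interval of -0.71 to 0.51 and an unadjusted p of 0.727. It turned positive without control replicate 5 (0.037) and without RhoA het replicate 7 (0.064).

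All 8 genes passed the filter on low counts. None of the 7 genes besides Casp4 passed an adjusted p of 0.05 (edgeR quasi-likelihood test, Benjamini-Hochberg over all genes), none had an unadjusted p under 0.05 (0.213 to 0.783) and none separated the groups in CPM. Over all 15660 genes these shares were 0% (0 genes), 2.38% (372 genes) and 1.81% (284 genes). The DESeq2 Wald test also called 0 genes, with 344 at an unadjusted p under 0.05. With the replicate block 2 of 15714 genes (0.0127%) passed, none of them in the group, and the 7 genes had adjusted p of 0.933 to 0.967 in edgeR. The median log2 fold change of the 7 genes was -0.039 and that of all genes tested -0.00071.

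**Figure D3:**
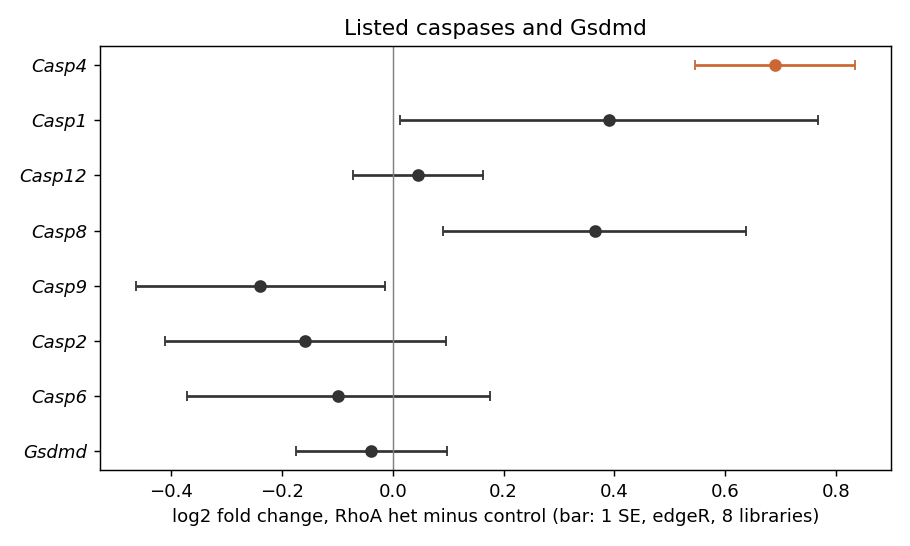
Log2 fold change of RhoA het minus control for the 7 caspases and Gsdmd, with bars of 1 SE from the edgeR fit over 8 libraries. Casp4 (orange) lies at 0.69, and the other genes lie between -0.24 and 0.39.

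Casp14, a caspase of the skin outside the group, had 0 fragments in every library, where 3 fragments would amount to 0.117 to 0.157 CPM.

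Per length, Casp4, Casp12 and Gsdmd were the abundant genes of the group. Over all 8 libraries the group averaged 40.9 ± 12.2 TPM for Casp4, 32.1 ± 5.03 for Casp12, 28.9 ± 3.58 for Gsdmd, 7.36 ± 2.41 for Casp8, 4.98 ± 1.67 for Casp2, 3.89 ± 0.968 for Casp9, 3.29 ± 1.00 for Casp6 and 1.82 ± 0.675 for Casp1 (SD, n = 8). Casp4 and Casp12 were level in control, at 30.3 ± 3.97 and 30.9 ± 6.98 TPM (SD, n = 4). In RhoA het they were at 51.4 ± 6.08 and 33.3 ± 2.59 TPM (SD, n = 4).

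**Figure D4:**
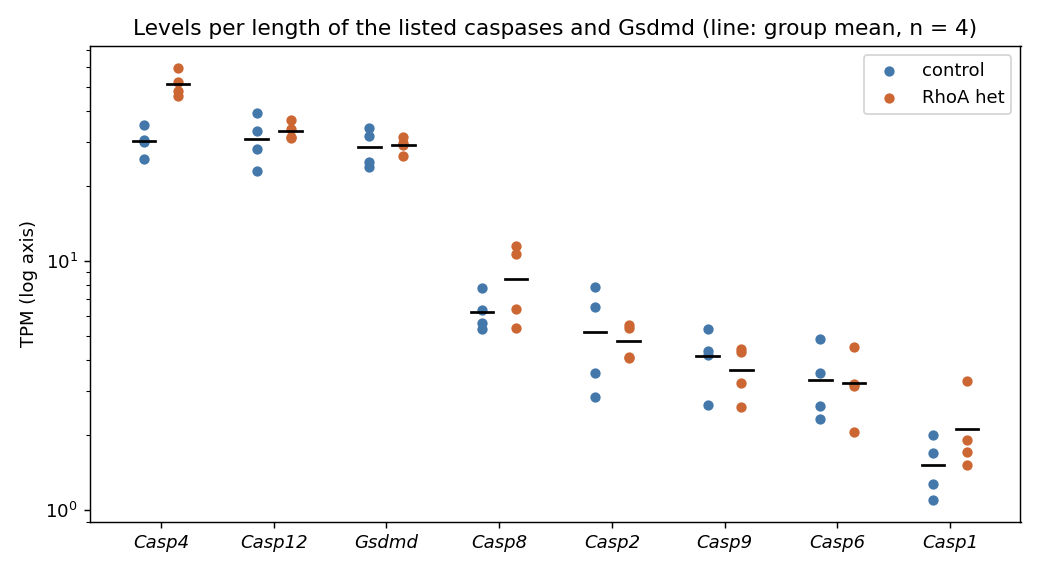
TPM on a log axis for the 7 caspases and Gsdmd, with 1 point per library (control blue, RhoA het orange) and a line at each group mean (n = 4). Casp4, Casp12 and Gsdmd lie above 20 TPM in every library, and the other 5 genes lie below 12 TPM.

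Neighbours in this order were set side by side within libraries as differences of log2(TPM + 0.1), a description without a test because the order was read from the same values. Gsdmd exceeded Casp8 by 2.01 ± 0.474 (mean and SD, n = 8) and did so in 8 of 8 libraries. Casp6 exceeded Casp1 by 0.83 ± 0.561 in 7 of 8 libraries, and Casp8 exceeded Casp2 by 0.56 ± 0.547 in 6 of 8. The other 4 mean differences, from 0.15 to 0.32, were smaller than their SD over libraries. Among them is that of Casp4 over Casp12, which contains the values that chose Casp4.

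Across the 8 libraries Casp4 was set against each of the other 7 genes in log2 CPM. These relations carry the group difference that chose Casp4 and are a description without a test. The largest were with Casp9 (Pearson r -0.61, Spearman rho -0.69) and with Casp1 (r 0.56, rho 0.43). Without RhoA het replicate 6 and control replicate 5, the libraries farthest from the Casp4 median, r was -0.026 with Casp9 and 0.11 with Casp1. Leaving out these libraries narrows the range of Casp4, which can by itself weaken r. The removal therefore cannot tell whether the relations rested on them. On deviations from the group means, which hold no group difference, r was -0.52 with Casp9 and 0.56 with Casp1. Without the 2 libraries farthest from the Casp4 median on that scale, r was -0.073 and 0.26. Libraries with the same replicate number resembled each other, so the 8 are not fully independent.

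The genes with the pattern most like Casp4 over the 8 libraries were Mn1 (Pearson r 0.94), Glis3 (0.94), Klf8 (0.94), Id4 (0.93) and Adam9 (0.93), a description among 15660 genes. All 5 had a higher mean in RhoA het, which the choice by likeness to Casp4 fixed in advance. Mn1, the first of them, lay at 1.44 to 3.22 CPM in control and at 3.24 to 10.4 CPM in RhoA het, and RhoA het replicate 6 was its highest library as it was for Casp4. Adam9, a membrane metalloprotease gene and the most abundant of the 5, had means of 85.2 and 103.8 CPM. On deviations from the group means none of the 5 was among the 5 genes most like Casp4.

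The rest of the pathway was read from 8 lists with 98 distinct genes, of which 81 were tested. None was called at an adjusted p under 0.05 in either direction (edgeR, over all genes). Besides Casp4, 2 of 80 genes (2.5%) had an unadjusted p under 0.05, beside 2.38% of all genes. Pmaip1, a BH3-only gene that promotes apoptosis, averaged 68.6 ± 8.25 CPM in RhoA het against 51.5 ± 7.33 CPM in control (log2 fold change 0.41, SE 0.14, edgeR unadjusted p 0.0147). Bid, which Casp8 cuts to link death receptors to mitochondria, averaged 4.79 ± 0.900 CPM against 6.63 ± 0.755 CPM (log2 fold change -0.47, SE 0.21, edgeR unadjusted p 0.0473). The groups overlapped for both.

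Inflammasome sensors were scarce. Of 13 genes in this list 11 were too low to test, and their highest value in any library was 1.03 CPM (Aim2, a sensor of DNA). Nlrp3 had 0 to 2 fragments per control library and 0 to 7 per RhoA het library, and Aim2 had 1 to 9 and 0 to 20. Pycard, the adaptor that joins sensors to Casp1, was at 6.51 ± 1.90 and 5.89 ± 1.17 CPM (log2 fold change -0.15, SE 0.26). The remaining tested gene was Nek7, a partner of Nlrp3, with a log2 fold change of 0.26 (SE 0.16). The median of these 2 genes was 0.055, and it ran from -0.063 without control replicate 2 to 0.14 without control replicate 7.

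Of the 9 pyroptosis effectors and cytokine substrates, 6 were tested, none was called and their median log2 fold change was 0.0072, with -0.12 without RhoA het replicate 6 and 0.075 without control replicate 8. Il1b was at 0.047 to 0.418 CPM in control and at 0.051 to 0.188 CPM in RhoA het replicates 5, 7 and 8. Its highest value, 2.00 CPM or 42 fragments, was in RhoA het replicate 6, the library with high endothelial markers and Ptprc. Il18, the other cytokine that Casp1 processes, was detected at 12.01 ± 4.16 and 12.5 ± 5.71 CPM. In pairs 5, 7 and 8 the RhoA het library held 0.866, 0.831 and 0.710 times the control value, and 12.5% of all genes were lower in RhoA het in 3 of 3 pairs. The highest Il18 value, 19.5 CPM, was in the unpaired RhoA het replicate 6. Gsdme, another gasdermin, was at 25.3 ± 6.24 and 28.8 ± 5.05 CPM (log2 fold change 0.19, SE 0.20). Ninj1, needed for membrane rupture after pore formation, was at 36.1 ± 9.57 and 33.8 ± 6.20 CPM (log2 fold change -0.097, SE 0.21).

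Genes of lipopolysaccharide sensing and interferon signalling, which induce Casp4 in other cells, had a median log2 fold change of 0.069 over 23 tested genes, with none called and 13 above 0. That median was -0.030 without RhoA het replicate 6, 0.0031 without control replicate 5 and 0.18 without control replicate 2. Tlr4, the cell surface receptor for lipopolysaccharide, was at 20.9 ± 7.90 and 19.8 ± 2.46 CPM (log2 fold change -0.078, SE 0.26). The interferon regulatory factor genes Irf1 and Irf2 had log2 fold changes of 0.14 (SE 0.31) and -0.095 (SE 0.12). Gbp2, an interferon-induced GTPase that binds bacterial lipopolysaccharide, was at 118.8 ± 23.5 and 146.8 ± 28.9 CPM (log2 fold change 0.30, SE 0.19, edgeR unadjusted p 0.133). None of these 4 genes had an unadjusted p under 0.05. Irgb10 was not matched to the table.

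The death receptor and necroptosis list had a median of 0.12 over 11 tested genes, with 9 above 0 and none called. That median was 0.024 without control replicate 5, 0.050 without RhoA het replicate 6, 0.040 without RhoA het replicate 8, 0.072 without RhoA het replicate 7 and 0.22 without control replicate 2. Fas, the receptor upstream of Casp8, was abundant at 262.6 ± 49.1 and 270.6 ± 54.1 CPM, while Fadd, the adaptor that recruits Casp8, was at 3.06 ± 0.754 and 2.72 ± 1.07 CPM. Cflar, an inhibitor of Casp8, and Ripk1, a kinase of the same complex, had log2 fold changes of 0.20 (SE 0.17) and 0.083 (SE 0.18). Mlkl, the pore-forming effector of necroptosis, was at 1.39 ± 0.192 and 1.80 ± 0.837 CPM. Tnfrsf10b, a death receptor named after its values were seen, was the 1 gene of the 80 besides Casp4 whose groups did not overlap, beside 1.81% of all genes tested (1.02% upward). It was at 10.6 ± 3.42 and 15.2 ± 0.556 CPM (log2 fold change 0.53, SE 0.25, edgeR unadjusted p 0.0588).

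The apoptosome and BCL2 list had a median of 0.050 over 18 genes and 0 called. The median took both signs when a library was left out, from -0.036 without control replicate 8 to 0.12 without RhoA het replicate 8, and was -0.049 in the 6 paired libraries unblocked. Apaf1, the scaffold on which Casp9 is activated, was at 18.6 ± 7.84 and 20.8 ± 4.52 CPM. Cycs, the cytochrome c that triggers its assembly, was at 135.4 ± 32.4 and 129.5 ± 9.21 CPM. Xiap, an inhibitor of Casp9, had a log2 fold change of 0.16 (SE 0.15). The PIDDosome genes Pidd1 and Cradd, which activate Casp2, had log2 fold changes of 0.55 (SE 0.45) and 0.037 (SE 0.23), with Pidd1 under 1 CPM on average. With a library left out, their median of 0.30 ran from 0.15 without RhoA het replicate 5 to 0.41 without RhoA het replicate 6. The 10 genes of endoplasmic reticulum stress beside Casp12 had a median of -0.037 with 2 above 0 and 0 called. Hspa5, the main chaperone there, and Ddit3, a death-promoting transcription factor, had log2 fold changes of -0.041 (SE 0.26) and 0.0015 (SE 0.24).

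**Figure D5:**
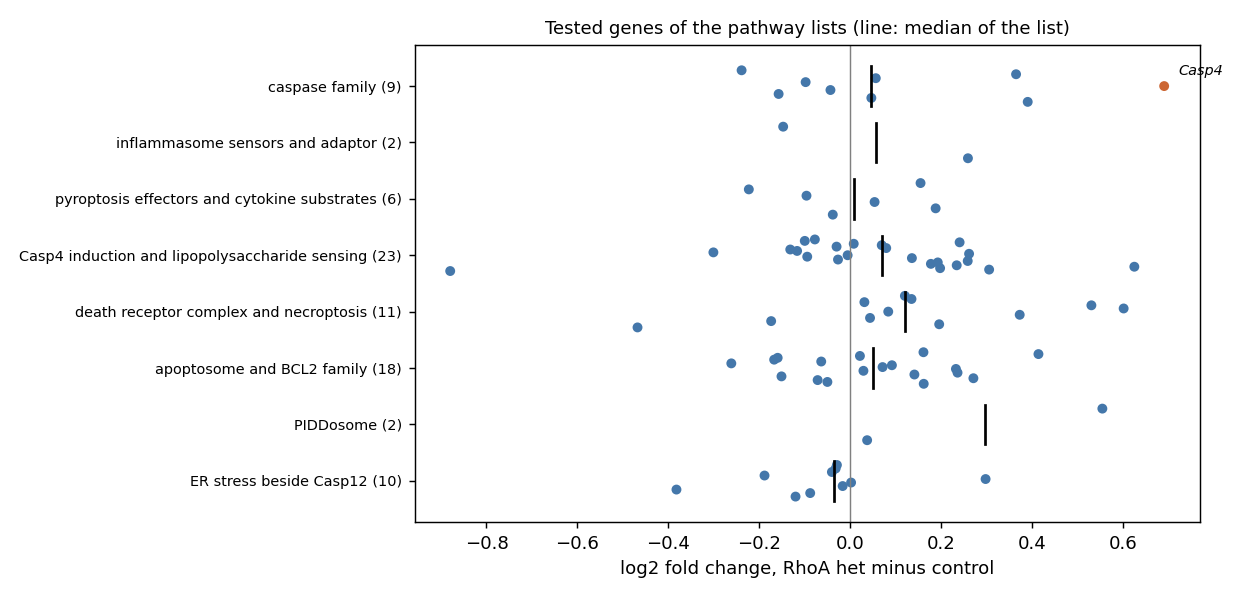
Log2 fold change of RhoA het minus control for each tested gene of the 8 lists (number of tested genes in brackets), with a black line at the median of each list. Casp4 (orange) is the highest point of all lists at 0.69, and the list medians lie between -0.037 and 0.30, the latter from the 2 PIDDosome genes.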

How the data were processed

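The authors deposited a table of fragment counts and a table of TPM per gene for 8 libraries. Per the file headers, counts were made with featureCounts 1.6.4 on read pairs, summed over the exons in the GENCODE mouse release 34 annotation (mm39), after STAR alignment, with no strand or multi-mapping option. Trimming with cutadapt is named in the submitters' processing notes. The command named 10 alignment files; 8 libraries were in the table and the others were not analysed here. The deposited TPM equalled counts per length, recomputed with a relative difference of at most 2e-14. Libraries within a group differed beyond counting noise (chi-square per degree of freedom at least 48.6). Symbols came from a GENCODE release 21 table, which matched 51884 of 57180 genes.

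Genes passing filterByExpr (15660) were scaled by TMM and tested over all 8 libraries with edgeR's quasi-likelihood test (edgeR 4.0.16, R 4.3.3), with Benjamini-Hochberg adjustment over all of them. SE came from the F statistic and log2 CPM used a prior count of 2. A fit with replicate numbers 5, 7 and 8 as a block was added: same-numbered deviations from the group means correlated at 0.544, 0.231 and 0.488, so the numbers were taken to pair libraries, although the labels do not say what they stand for. Alternatives used DESeq2 1.42.0, limma 3.58.1 on log2(TPM + 1) and log2(TPM + 0.1), other scalings and filters, and each library left out.

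The genes, lists and tests were chosen with earlier results of these data known. Most genes were named for their role, as the 5 most like Casp4, or at an unadjusted p under 0.05 in a list. Tnfrsf10b and Pax7, and single markers set beside a summed level, were named after their values were seen. Fibro-adipogenic markers summed to 2533 to 11560 CPM in control and 4513 to 9641 CPM in RhoA het, mural markers to 591.2 to 1123 and 618.0 to 2255 CPM, Schwann markers to 120.2 to 218.7 and 124.9 to 247.9 CPM, myofibre markers to 69.9 to 466.1 and 41.9 to 432.2 CPM, and erythroid markers to 1.86 to 142.6 and 2.86 to 319.3 CPM. Some listed genes are not reported here.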

Additional observations from a re-analysis of the deposited data

Results flagged for a closer look

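Within each group of 4 libraries, the gap between an extreme library and its nearest neighbour was divided by the range of the group and set against Dixon's 95% critical value for 4 samples. Of 36 groups of values tested (single genes and summed marker lists), 5 exceeded it, where chance gives about 1.8. Gsdmd was low in control replicate 8, at 18.5 CPM beside 22.6 to 23.0 CPM in the other control libraries (ratio 0.908). The endothelial markers were high in RhoA het replicate 6, at 691.8 CPM beside 113.6 to 143.9 CPM (ratio 0.948). Erythroid markers were high in the same library, at 319.3 CPM beside 2.86 to 25.4 CPM (ratio 0.929), and in control replicate 7, at 142.6 CPM beside 1.86 to 22.3 CPM (ratio 0.855). Fibro-adipogenic markers were high in RhoA het replicate 5, at 9641 CPM beside 4513 to 4969 CPM (ratio 0.911). Most of that sum was Col3a1 at 5158 CPM and Col1a1 at 2802 CPM. Among RhoA het libraries, Col1a1, Col1a2, Col3a1 and Dpt were highest there, and Pdgfra, Dcn, Ly6a and Lum were not. Dcn, at 538.4 CPM, was lowest there. Casp4 did not exceed the critical value in either group.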

How the results depend on the processing

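The Casp4 log2 fold change stayed positive in all 19 alternatives, between 0.55 in the 6 paired libraries without a block and 0.76 on log2(TPM + 0.1), and between 0.57 and 0.74 when each library was left out. The number of genes called was 0 in every alternative but the replicate block over the 3 pairs, which gave 2; none of the 7 other genes was called in any. Casp1, Casp8 and Casp9 kept their direction. Gsdmd turned to 0.0024 on total counts, 0.041 on log2(TPM + 1) and 0.043 on log2(TPM + 0.1), and Casp12 to -0.065 with the replicate block and -0.066 when those 6 libraries were fitted unblocked. With each library left out, Gsdmd ranged from -0.11 to 0.027, Casp12 from -0.0017 to 0.094, Casp2 from -0.30 to 0.019 and Casp6 from -0.27 to 0.064. The median of the endoplasmic reticulum stress list was 0.041 on log2(TPM + 1) and on log2(TPM + 0.1), -0.099 with the replicate block, -0.079 in the same libraries without it, -0.073 with the number as a random effect, and -0.12 to -0.025 with a library left out. That of the pyroptosis effectors was -0.092 with the block, -0.11 without it, and -0.12 to 0.075 with a library left out. On deviations from the group means, r between Casp4 and Gsdmd was 0.30 in place of -0.0016. The count of listed genes besides Casp4 at an unadjusted p under 0.05 was 7 of 80 with the block (8.75%, beside 5.26% of all genes in that fit), 5 with the random effect (6.25% beside 5.36%), 6 without control replicate 5 (7.5% beside 4.36%) and 1 to 3 without any other library. The cause was not tested for any of these. Casp1 had the fewest fragments of the 8 genes, 24 to 71 per library.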
